A study of Mus musculus with 2 samples.

Results

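The chemokine gene Cxcl12 and the genes of its receptors, Cxcr4 and Ackr3, were followed through the cell classes of the mouse embryonic pancreas. They are 3 of the 27998 genes of the deposited matrices and were taken by symbol, with all 3 found. The series profiled live cells of 2 pancreata at embryonic day 13.5 by droplet sequencing of transcript 3' ends, counting molecules by a barcode each (UMIs). A knockout-titled library was made from the pancreas of a Dpy30∆P embryo, as the series title writes the mutant, and a control library from that of another embryo, both C57BL/6. The sources used here do not give the driver of the deletion, the deleted part of Dpy30 or the alleles of the control. With a single embryo in each group, the differences between libraries are unreplicated and were not tested.

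CXCL12 is a secreted chemokine that stromal cells of many embryonic organs release and that guides migrating cells, among them blood, germ and vascular cells. CXCR4 is its signalling receptor, a G protein-coupled receptor. ACKR3 binds the same ligand, recruits arrestin and clears the ligand from the space between cells.

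In GRCm38, Cxcl12 (ENSMUSG00000061353) lies on the plus strand of chromosome 6 from 117168535 to 117181367. On chromosome 1, Cxcr4 (ENSMUSG00000045382) spans 128588199 to 128592293 on the minus strand, and Ackr3 (ENSMUSG00000044337) spans 90203980 to 90216751 on the plus strand. None of the 3 overlaps another gene of the annotation, so no antisense or overlapping gene shares their tags. In the cells kept, Cxcl12 had 3639 UMIs in the knockout-titled library and 4090 in the control library, Ackr3 had 186 and 198, and Cxcr4 had 7 and 17. These numbers set the precision: Cxcl12 can be followed within clusters, Ackr3 within large classes, and Cxcr4 hardly at all.

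The knockout-titled library held 3044 barcodes with 28033433 UMIs and the control library 3900 with 32702089, of which 2930 and 3743 cells were kept, with medians of 7958 and 6733 UMIs. The libraries shared 22 barcode sequences. Dpy30 stood at 266 CPM in the epithelium of the knockout-titled library and at 226 CPM in that of the control library, which does not check the label, since it is not known whether the 3' tag lies in the deleted part. The embryos were of opposite sex: Xist had 55963 UMIs in the knockout-titled library and 2 in the control library, and Ddx3y had 0 and 1747. Sex and genotype therefore cannot be told apart here. Classes were named from marker genes and are written "-like". Each named class had UMIs for at least 8 of the markers of its own list in each library, and the mesothelial marker Msln and the insulin gene Ins1 were at 0 in the knockout-titled mesothelium-like and other endocrine-like cells. A cluster of 120 and 164 cells that scored best for mesenchyme had no marker of it among its 10 leading genes but the neural marker Stmn2, stayed unnamed and is given on its own.

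CPM below means the UMIs of a gene per 1000000 UMIs of the class, given with 95% exact Poisson intervals. Shares of cells have exact Clopper-Pearson intervals, and all intervals cover counting error alone. Where no cell had a UMI, the limit given is 3 cells of the total, which bounds cells with a UMI and not cells that express the gene. Ratios are log2 of (CPM + 5), knockout-titled over control. The genes were chosen with earlier results of these data known, so their levels are descriptions.

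Cxcl12 was highest in mesenchyme and was also found in mesothelium and in part of the epithelium. Its level was highest in Lum-high mesenchyme-like cells, those of mesenchymal clusters rich in lumican, a collagen-binding proteoglycan. It reached 849.9 CPM (794 to 909) there in the knockout-titled library and 925.5 CPM (869.8 to 984) in the control library. Of these cells, 98.5% of 137 (94.8 to 99.8) in the knockout-titled library and 96.5% of 170 (92.5 to 98.7) in the control library carried a Cxcl12 UMI at median depths of 7103 and 6330 UMIs, with medians of 6 and 5 UMIs per cell. They were 4.68% and 4.54% of the cells kept and held 23.5% and 25.2% of all Cxcl12 UMIs. The clusters were made without the 3 genes, and only 1 mesenchymal cluster passed the limit of 2 times the mean Lum level, at 395.5 CPM against 105.6 for all mesenchyme, while the next had 127.9.

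In other mesenchyme-like cells Cxcl12 stood at 149.7 CPM (143 to 156) in the knockout-titled library and 144 CPM (138 to 150.3) in the control library. The unnamed cluster had 316 CPM (276 to 361) and 238 CPM (206 to 274). Lum-high cells thus exceeded the other mesenchyme 5.68-fold (5.24 to 6.15) in the knockout-titled library and 6.42-fold (5.96 to 6.92) in the control library. The size of this gap depended on how the class was cut. At a clustering resolution of 2.0 the levels were 770.1 CPM in Lum-high and 155 CPM in other mesenchyme in the knockout-titled library, and 325 and 171 CPM in the control library. With cells assigned by marker UMIs they were 684 and 196 CPM, and 509 and 221 CPM. Mesothelium-like cells, the covering layer of the organ, had 78.9 CPM (68.04 to 90.97) and 81.7 CPM (70.6 to 94.2).

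Within the epithelium, Cxcl12 marked the trunk and not the tips. Trunk-like cells, the ductal and bipotent part, had 57.02 CPM (48.8 to 66.3) in the knockout-titled library and 79.7 CPM (71.7 to 88.4) in the control library. Tip-like cells, which carry acinar genes, had 5.49 CPM (3.20 to 8.79) and 9.39 CPM (6.46 to 13.2). The trunk thus exceeded the tips 10.4-fold (6.30 to 18.3) and 8.49-fold (5.94 to 12.5). Without doublet removal the gap was smaller, with 16.9 and 36.8 CPM in tip-like and 56.7 and 78.4 CPM in trunk-like cells. Neurog3-high cells, with 5 or more UMIs of the gene of the endocrine master regulator NEUROG3, had 106 CPM (83.0 to 134) and 100.5 CPM (84.2 to 119). In the other endocrine-like cells no Cxcl12 UMI was found among 24 cells of the knockout-titled library, which allows up to 12.5% of cells with a UMI, and 6 UMIs in 3 of 90 cells were found in the control library. Among named classes, Lum-high mesenchyme, other mesenchyme, Neurog3-high cells, mesothelium and trunk followed each other in this order in both libraries. The intervals of neighbours overlapped for Neurog3-high and mesothelium-like cells in both libraries, and for mesothelium-like and trunk-like cells in the control library. The tip-like class was filled differently: its cluster 7, led by Vtn, held 85 cells of the knockout-titled library and 6 of the control library.

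Free RNA sets a floor under these levels. Erythroid barcodes, which should lack Cxcl12, had 4.25 CPM (0.514 to 15.3) in the knockout-titled library and 4.23 CPM (0.107 to 23.6) in the control library, from 2 of 37 and 1 of 32 barcodes with median depths of 12417 and 6430 UMIs. Immune-like cells had 0 of 23 and 2 of 82 cells with a Cxcl12 UMI. The tip-like, endothelium-like, neural-like and other endocrine-like levels have intervals that overlap those of the erythroid barcodes. The erythroid intervals are wide, resting on 2 and 1 barcodes with a UMI, so these levels cannot be told from free RNA by those barcodes. The trunk-like, Neurog3-high, mesenchyme-like and mesothelium-like levels lie above the erythroid intervals in both libraries.

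**Figure D1:**
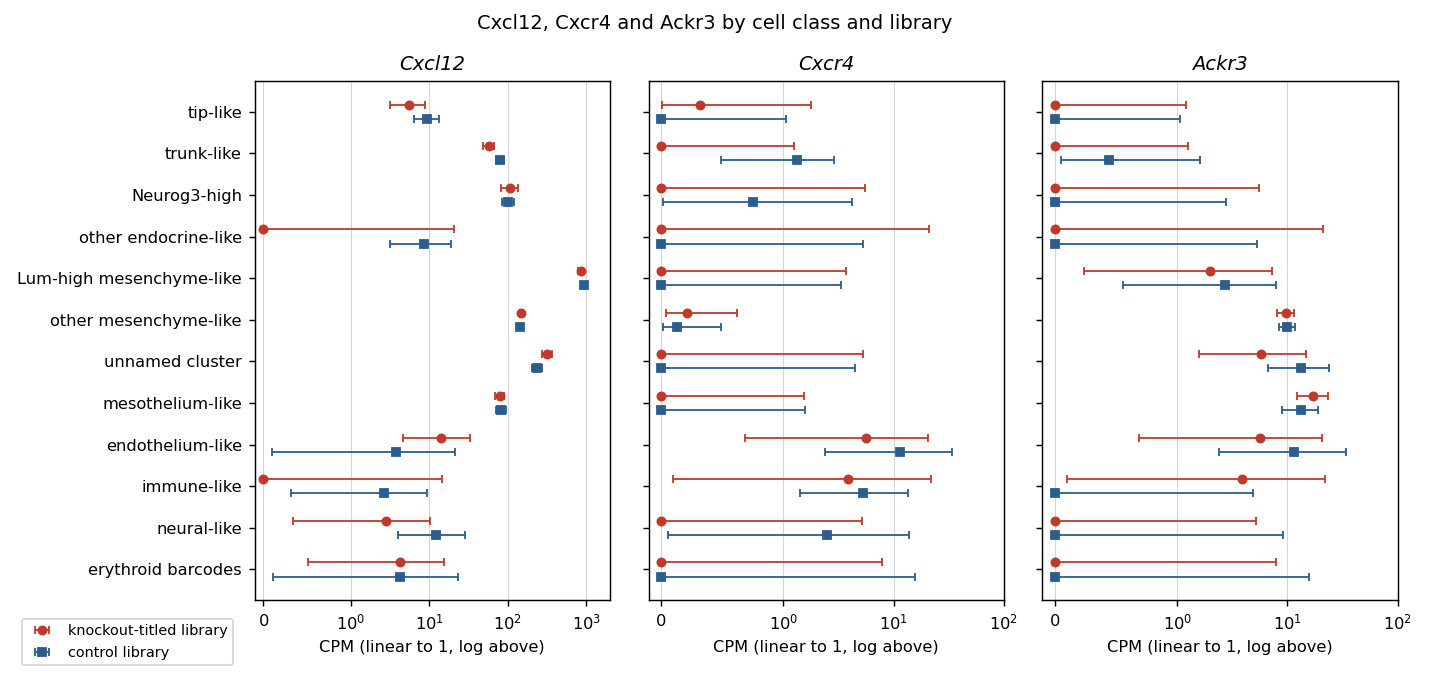
CPM of Cxcl12, Cxcr4 and Ackr3 in each cell class, with the knockout-titled library (red circles) above the control library (blue squares). Bars are 95% exact Poisson intervals, and the axis is linear up to 1 CPM and logarithmic above. Cxcl12 stands at 849.9 and 925.5 CPM in Lum-high mesenchyme-like cells, above every other class, and most Cxcr4 bars reach 0.

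The largest difference in Cxcl12 between the libraries, among named classes where it stood above the floor, was in the trunk. Cxcl12 had 169 UMIs in 210 trunk-like cells of the knockout-titled library and 360 in 338 cells of the control library. The ratio of the CPM was 0.715 (0.592 to 0.861), a log2 ratio of -0.45 (-0.70 to -0.20). Cells with a UMI were 67 of 210 (31.9%) in the knockout-titled library and 176 of 338 (52.1%) in the control library, at median depths of 13659.5 and 12663 UMIs. After thinning each cell to 3000 UMIs they were 26 of 210 (12.4%, 8.25 to 17.6) and 70 of 335 (20.9%, 16.7 to 25.7), intervals that overlap. The log2 ratio was negative under each of the 21 alternatives run, between -0.74 and -0.086, although marker-UMI assignment took in 707 and 1327 cells. It did not reach the fold used for a call (a log2 ratio of 1 in either direction), which 0.391% of the 10483 genes tested in trunk-like cells passed. No member with at least 20 UMIs reached that fold in any class, the tip-like and other mesenchyme-like cells included, where 0.706% and 0.232% of genes did.

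The trunk difference was uneven over the 4 trunk-like clusters, whose levels here include the Neurog3-high cells that lie in them. In cluster 0, led by Spp1, Dcdc2a and Anxa2 and highest for Cxcl12 within the epithelium, the levels were 147 CPM (124 to 174) in the knockout-titled library and 179 CPM (155 to 206) in the control library. In cluster 3, led by Cyr61, Ccnb2 and Spp1, they were 14.4 CPM (8.04 to 23.7) and 73.8 CPM (58.1 to 92.5). In cluster 5, led by the mitotic genes Ube2c and Nusap1, they were 45.3 CPM (28.02 to 69.2) and 84.1 CPM (69.9 to 100.3). The S phase cluster 4, led by Clspn and Rrm2, went the other way, with 59.3 CPM (43.6 to 78.9) and 43.2 CPM (32.5 to 56.4).

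Intervals did not overlap in clusters 3 and 5 and overlapped in clusters 0 and 4. Without cluster 3 the log2 ratio of the trunk-like class, Neurog3-high cells left out, was -0.086, and without clusters 0 and 4 it was -0.74 and -0.72. With both libraries at equal shares of the 4 clusters it was -0.45. These alternatives were chosen after seeing the data. Spp1, the osteopontin gene and leading trunk marker, stood at 2489 CPM in trunk-like cells of the knockout-titled library and 3823 CPM in those of the control library, and in cluster 3 at 1266 and 3430 CPM. Its part in the Cxcl12 difference was not tested.

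All Neurog3-high cells had a log2 ratio of 0.077 (-0.34 to 0.48), between -0.12 and 0.38 over the alternatives. Its interval overlaps that of the trunk-like cells and the difference between the classes was not tested, and 2.69% of genes tested in these cells passed a log2 ratio of 1 in either direction. These cells lay in both trunk-like and endocrine progenitor-like clusters, and Cxcl12 differed between those. Trunk-like clusters held 21 of the 61 Neurog3-high cells of the knockout-titled library and 26 of the 143 of the control library. The libraries thus mixed these cells differently, and the part of this mix in the log2 ratio of all Neurog3-high cells was not tested. In trunk-like clusters, 18 of 21 Neurog3-high cells of the knockout-titled library and 25 of 26 of the control library had a Cxcl12 UMI, at 188 CPM (141 to 245) and 276 CPM (222 to 339), lower in the knockout-titled library with intervals that overlap. In endocrine progenitor-like clusters they were 7 of 38 and 21 of 111, at 50.2 CPM (29.2 to 80.3) and 47.5 CPM (34.4 to 63.97). Median Neurog3 counts were 9 and 11 UMIs in the trunk-like and 32 and 38 UMIs in the progenitor-like ones.

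The same order appeared when epithelial cells were binned by Neurog3 alone, without clusters. Tip-like cells, low in Cxcl12, were not taken out of the bins, and their part in the level of the lowest bin was not tested. Cells with no Neurog3 UMI had 20.2 CPM (16.6 to 24.3) of Cxcl12 in the knockout-titled library and 35.9 CPM (31.6 to 40.5) in the control library. Those with 1 to 4 had 108 CPM (84.9 to 136) and 92.2 CPM (77.6 to 109), and those with 5 to 19 had 158.5 CPM (118 to 209) and 195 CPM (161 to 235). Those with 20 or more had 59.6 CPM (36.9 to 91.1) and 28.04 CPM (17.4 to 42.9). Cxcl12 was thus higher at intermediate than at high Neurog3 counts in both libraries, and the split at 20 UMIs was chosen after seeing the data. Spp1 stood at 3074 and 3139 CPM in the bin of 5 to 19 and at 661 and 1175 CPM in that of 20 or more. Bins of raw UMIs depend on depth, and median depths were 9904 and 8449 UMIs in the bin of 5 to 19 and 9399 and 8668 UMIs in that of 20 or more.

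**Figure D2:**
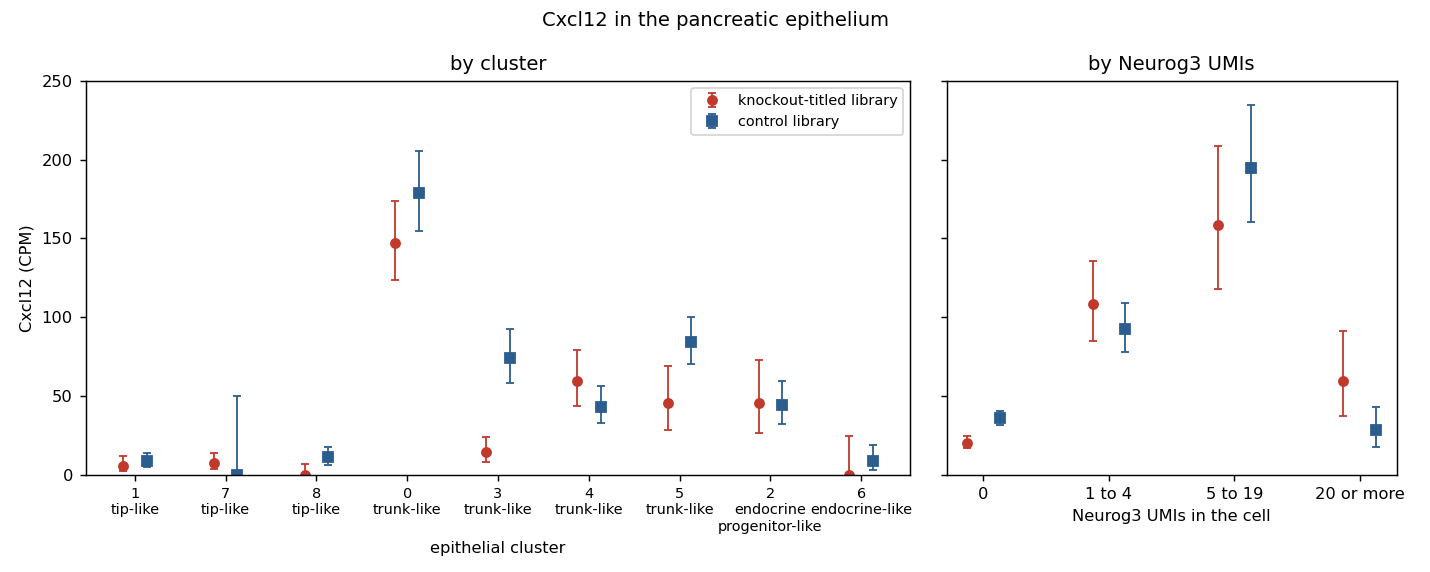
Cxcl12 level (CPM, with 95% exact Poisson intervals) in each epithelial cluster, at left, and in epithelial cells binned by their Neurog3 UMIs, at right. Red circles are the knockout-titled library and blue squares the control library. Cluster 0 is highest in both libraries, cluster 3 differs most between them, and the bin of 5 to 19 Neurog3 UMIs stands above the bin of 20 or more.

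The authors' deposited table of genes by cluster, whose 7 clusters are led by epithelial genes, lists Cxcl12 for several clusters, of which 3 are given. In the authors' deposited table it was higher in the cluster led by Spp1 and Cyr61, where 53.8% of cells carried it against 22.5% of the other cells, with an average natural log fold of 0.54. In the authors' deposited table it was lower in the cluster led by Gcg (6.80% of cells against 33.2%) and in that led by Ctrb1 (9.70% against 34.4%). The table lists Cxcr4 and Ackr3 for 0 of the 7 clusters.

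In the mesenchyme as a whole Cxcl12 differed little between the libraries. All mesenchyme-like cells had 196 CPM (189 to 204) in the knockout-titled library and 199 CPM (192 to 206) in the control library. The log2 ratio was -0.017 (-0.088 to 0.054), and between -0.14 and 0.013 over the alternatives, where 0.237% of genes tested passed a log2 ratio of 1. In mesothelium-like cells the log2 ratio was -0.048 (-0.33 to 0.23), beside 0.729% of genes past that fold, and it was 1.03 when cells were assigned by marker UMIs without clusters, which left 27 and 62 such cells. In Lum-high cells the log2 ratio was -0.12 (-0.25 to 0.0092), beside 2.43% of genes, and its direction depended on where the class was cut. It was 0.12 at a clustering resolution of 0.5 and 1.23 at 2.0, where the class held 152 and 538 cells, so no direction is read from it.

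Cxcl12 varied within the mesenchyme more than between the libraries. After the Lum-high cluster, the highest was cluster 3, led by Ebf2, Igfbp5 and Ntrk2, with 319 CPM (287 to 353) in the knockout-titled library and 410.1 CPM (378 to 445) in the control library. Cluster 9, led by Dkk2, an extracellular regulator of Wnt signalling, followed with 219 CPM (194 to 247) and 292 CPM (218 to 383). The lowest was cluster 10, led by the smooth muscle actin gene Acta2 and the Notch target Heyl, with 39.2 CPM (17.9 to 74.3) and 70.1 CPM (46.9 to 101). Cxcl12 was higher in the knockout-titled library in 5 of the 11 clusters. In the mitotic cluster 7 (Cenpf, Nusap1) it had 197 CPM (175 to 221) and 132 CPM (114 to 152). The intervals of the libraries did not overlap in cluster 7, higher in the knockout-titled library, and in cluster 3, lower in it.

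The libraries filled different mesenchymal clusters, which bears on every value above. Cluster 0, whose leading genes include the Y-linked Eif2s3y, held 54 mesenchyme-like cells of the knockout-titled library and 1002 of the control library, and cluster 1 held 621 and 117. With cluster 9 (133 and 24 cells), over 4 in 5 cells came from 1 library in 3 of the 11 clusters, which may then mark the library rather than a type of cell. Cxcl12 stood at 98.9 CPM (68.9 to 138) and 97.7 CPM (89.9 to 106) in cluster 0, and 78.7 CPM (70.5 to 87.5) and 89.6 CPM (68.8 to 115) in cluster 1, with overlapping intervals in both and in cluster 9. With equal shares of the 11 clusters in both libraries the mesenchymal log2 ratio of Cxcl12 was -0.086.

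Among thinned mesenchyme-like cells, Lum was found more often beside Cxcl12. It was seen in 169 of 648 cells with Cxcl12 (26.1%, 22.7 to 29.6) and 133 of 1273 without (10.4%, 8.82 to 12.3) in the knockout-titled library. In the control library it was seen in 276 of 810 (34.1%, 30.8 to 37.5) and 314 of 1582 (19.8%, 17.9 to 21.9). Lum cut the class above, so this describes the class and is no independent measure.

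Cxcr4, the signalling receptor, was seen in 6 cells of the knockout-titled library and 16 of the control library. Endothelium-like cells had 2 UMIs in 32 cells and 3 UMIs in 26 cells, at 5.65 CPM (0.685 to 20.4) and 11.5 CPM (2.37 to 33.6). Immune-like cells had 1 UMI in 23 cells and 4 UMIs in 82 cells, at 3.90 CPM (0.0986 to 21.7) and 5.25 CPM (1.43 to 13.4). Over both libraries these 2 classes were 2.44% of the cells kept and held 10 of the 24 Cxcr4 UMIs, at 6.12 CPM (2.94 to 11.3). Mesenchyme-like, mesothelium-like and unnamed cells together had 5 UMIs in 5181 cells, at 0.134 CPM (0.0436 to 0.313). The 2 intervals did not overlap, and with 0 UMIs in the 37 and 32 erythroid barcodes, whose intervals reach 7.83 and 15.6 CPM, the vascular and immune levels cannot be told from free RNA by those barcodes alone.

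Epithelial Cxcr4 was sparse. It had 1 UMI in 468 epithelial cells of the knockout-titled library, at 0.145 CPM (0.00367 to 0.807), and 7 UMIs in 747 of the control library, at 0.697 CPM (0.280 to 1.44). Of these, the trunk had 0 UMIs in 210 cells, which allows up to 1.43% of cells with a UMI, and 6 UMIs in 6 of 338 cells (1.78%), at median depths of 13659.5 and 12663 UMIs. In mesenchyme-like cells, as a low class for comparison, the share was 0.102% and 0.0828% at medians of 7323 and 6098 UMIs. Neurog3-high cells had 0 of 61 and 1 of 143, and thinning to 3000 UMIs left 0 of 210 and 1 of 335 trunk-like cells. The log2 ratio was -0.15 in the epithelium and -0.20 in Neurog3-high cells, with 0.497% and 2.69% of all genes tested past a log2 ratio of 1. Those genes needed 20 UMIs, which Cxcr4 did not have. The pseudocount of 5 CPM exceeds the Cxcr4 levels, so these log2 ratios could not reach -1 whatever the knockout-titled count. Without it, the ratio of the CPM in the epithelium was 0.208 (0.00461 to 1.62), an interval that includes 1. Neither difference is detectable at this depth. No Cxcr4 UMI was found in Lum-high mesenchyme-like or mesothelium-like cells of either library.

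Ackr3, the clearing receptor, was a gene of mesothelium and mesenchyme and was seldom found in the epithelium. Mesothelium-like cells had 41 UMIs, at 17.1 CPM (12.3 to 23.2), in the knockout-titled library and 31 UMIs, at 13.3 CPM (9.01 to 18.8), in the control library. Other mesenchyme-like cells had 136 UMIs at 9.64 CPM (8.09 to 11.4) and 148 UMIs at 10.0 CPM (8.46 to 11.8). Cells with a UMI were 33 of 254 (13.0%) and 29 of 257 (11.3%) in the mesothelium at medians of 9012 and 8365 UMIs, and 13 of 248 (5.24%, 2.82 to 8.80) and 11 of 254 (4.33%, 2.18 to 7.62) after thinning. Epithelial cells had 0 UMIs in 468 cells, which allows up to 0.641% of cells with a UMI, and 2 UMIs in 747 cells (0.268%) at medians of 14325.5 and 12127 UMIs. The mesothelial level was 66.7-fold (17.0 to 575) the epithelial one in the control library, a ratio over 2 epithelial UMIs. In the knockout-titled library, with 0 epithelial UMIs, the lower exact limit of this ratio was 30.6. The gap depended on how cells were assigned. By marker UMIs the mesothelium had 7.35 and 7.88 CPM and the epithelium 4.02 and 4.65 CPM. That assignment put 27 and 62 cells in the mesothelium-like class and 1095 and 1785 in the epithelium. Endothelium-like cells had 2 UMIs in 1 of 32 cells, at 5.65 CPM (0.685 to 20.4), and 3 UMIs in 3 of 26 cells (11.5%), at 11.5 CPM (2.37 to 33.6). These intervals overlap those of the mesothelium and the other mesenchyme, and immune-like cells had 1 and 0 UMIs.

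Lum-high cells, where Cxcl12 was highest, had little Ackr3. They had 2 UMIs at 1.99 CPM (0.241 to 7.18) in the knockout-titled library and 3 UMIs at 2.70 CPM (0.556 to 7.88) in the control library. Relative to them, the other mesenchyme was 4.85-fold (1.32 to 40.5) higher in the knockout-titled library and 3.71-fold (1.25 to 18.2) in the control library, and the Lum-high ratios rest on those few UMIs. At a resolution of 2.0, where the class took in 538 control cells, the Lum-high level was 5.59 and 11.03 CPM and that of the other mesenchyme 9.25 and 9.33 CPM, so the gap was gone in the control library.

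Ackr3 followed a different order of clusters. Among the mesothelium-like clusters, the one led by Lhx9 and Oprk1 had 21.8 CPM (14.5 to 31.4) in the knockout-titled library and 19.3 CPM (10.8 to 31.9) in the control library. The one led by Pnoc and Trh had 3.63 CPM (0.439 to 13.1) and 9.57 CPM (3.11 to 22.3), which overlap those of the first in the control library and not in the knockout-titled library. The mitotic mesothelium-like cluster had 19.8 CPM (9.86 to 35.3) and 10.6 CPM (5.29 to 18.95). The mesenchymal cluster with the second-highest Cxcl12, cluster 3, had 14.5 CPM (8.46 to 23.2) and 9.85 CPM (5.38 to 16.5) of Ackr3, within the range of the clusters below it. In the knockout-titled library cluster 3 was second for Ackr3 too, after cluster 0. In the control library clusters 1 and 0 were the highest for Ackr3.

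**Figure D3:**
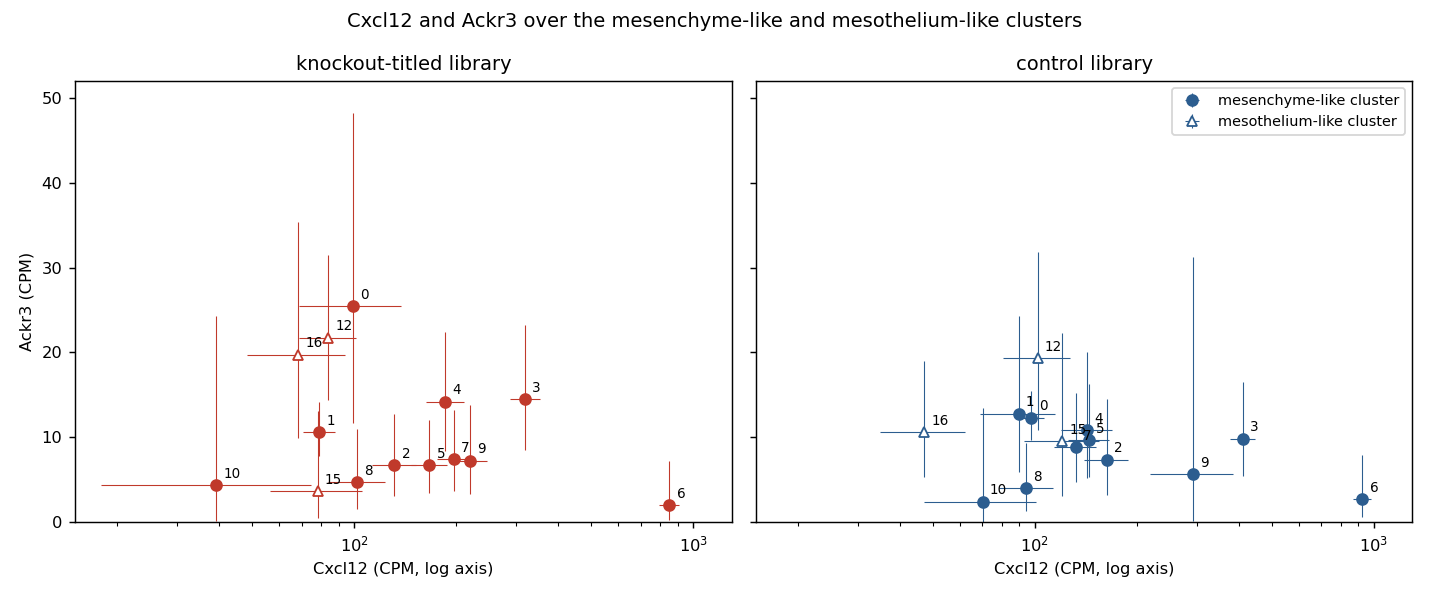
Ackr3 level against Cxcl12 level (CPM, Cxcl12 on a log axis) of each mesenchyme-like (filled circles) and mesothelium-like (open triangles) cluster, with the knockout-titled library at left and the control library at right. Bars are 95% exact Poisson intervals and numbers name the clusters. Cluster 6, the Lum-high one, is highest for Cxcl12 in both panels, with 1.99 and 2.70 CPM of Ackr3.

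The libraries did not differ detectably in Ackr3. The log2 ratio was -0.036 (-0.26 to 0.19) in all mesenchyme and 0.28 (-0.26 to 0.80) in mesothelium, and both intervals include 0. With equal shares of the 11 mesenchymal clusters it was 0.26, a value that gives weight to 9 Ackr3 UMIs in the 54 knockout-titled cells of cluster 0. Ackr3 was seen in 12 of 648 thinned mesenchyme-like cells with Cxcl12 (1.85%, 0.960 to 3.21) and 45 of 1273 without (3.53%, 2.59 to 4.70) in the knockout-titled library. In the control library it was seen in 21 of 810 (2.59%, 1.61 to 3.94) and 58 of 1582 (3.67%, 2.80 to 4.71). The intervals overlap in both libraries.

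**Figure D4:**
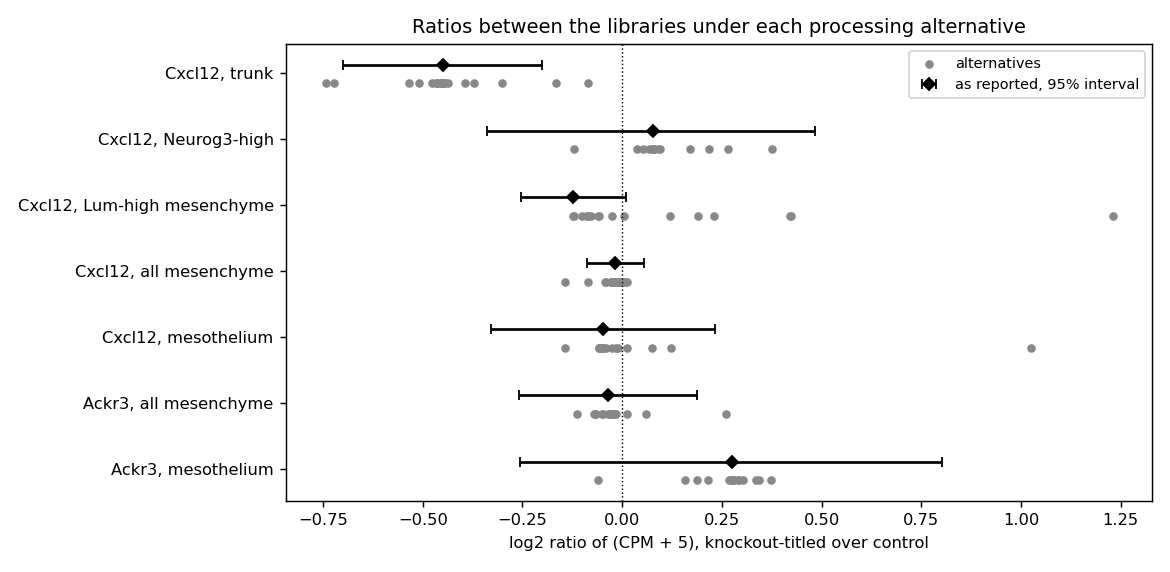
Log2 ratio of (CPM + 5), knockout-titled over control, for Cxcl12 and Ackr3 in the classes named at left. Black diamonds are the reported values with 95% intervals for counting error, and grey points are the processing alternatives. Every point for Cxcl12 in the trunk lies below 0, while those for Lum-high mesenchyme lie on both sides and reach 1.23.

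The genes most like each member over 20 profiles, 10 classes in each of 2 libraries, were picked among 5748 genes by Pearson's r of log2 (CPM + 5). The profiles share libraries, depth and classes, so r is a description. For Cxcl12 they were the collagen-processing enhancer gene Pcolce (r = 0.89), Armcx6 (0.89), the transmembrane teneurin Tenm4 (0.88), the ephrin ligand Efnb1 (0.87) and the glutathione transferase Gstm2 (0.87). For Ackr3 they were the homeobox genes Hoxb7 (0.85) and Hoxa5 (0.79), the coagulation inhibitor Tfpi (0.83), Mcc (0.80) and the serine protease Klk8 (0.80). For Cxcr4, on 24 UMIs, they were Prcp (0.94), the antiviral zinc finger gene Zc3hav1 (0.93), Gimap5 (0.93), the adaptor Grap (0.92) and the sphingosine 1-phosphate receptor S1pr1 (0.92), whose levels peaked in endothelium-like cells in the knockout-titled library, Zc3hav1 peaking in immune-like cells in the control library. Between the members r was 0.25 for Cxcl12 and Ackr3, -0.45 for Cxcl12 and Cxcr4 and 0.20 for Cxcr4 and Ackr3.

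A list of 15 held genes that process or bind CXCL12, with Mif, Cd74, Adm, Calcrl and Ramp2 of the MIF and adrenomedullin systems. Of these 15 genes, 12 had at least 20 UMIs in the epithelium, 14 in the mesenchyme and 11 in the mesothelium. In none of these 3 classes did one of them pass a log2 ratio of 1, beside 0.497%, 0.237% and 0.729% of all genes. In the epithelium 5 were higher and 7 lower (median log2 ratio -0.030, against -0.027 over all genes). In the mesenchyme 8 were higher and 6 lower (median 0.059 against -0.016). In the mesothelium 4 were higher and 7 lower (median -0.068 against -0.025). Dpp4, a protease that inactivates CXCL12, had 23.0 CPM in the knockout-titled and 40.2 CPM in the control mesothelium (log2 ratio -0.69, -1.12 to -0.27). Mmp14, a membrane metalloprotease, had 69.3 and 43.7 CPM there (log2 ratio 0.61, 0.28 to 0.95). These 2 genes, picked from the 11 measured there, went in opposite directions and neither passed the fold. Glypican 3 (Gpc3), a heparan sulfate proteoglycan, was highest in Lum-high mesenchyme-like cells, at 910.5 and 893 CPM. Ramp2, a coreceptor subunit for adrenomedullin, stood at 82.5 CPM in Lum-high cells of the knockout-titled library and 35.9 CPM in those of the control library (log2 ratio 1.10, 0.59 to 1.61). It was 1 of 35 genes tested over all lists in that class, near the 2.43% of all genes past the fold there, and the members of the class change with its cut, as for Cxcl12.

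The signal transduction genes below the receptors, 37 on the list and 35 in the files, held no gene past a log2 ratio of 1 in the epithelium, mesenchyme or mesothelium. Of all genes tested there, 0.497%, 0.237% and 0.729% were past it. In the epithelium 10 list genes were higher and 20 lower of 30 measured (median -0.10), in the mesenchyme 9 and 20 of 29 (median -0.044), and in the mesothelium 10 and 18 of 28 (median -0.079). Over all genes, 5356 were higher and 6710 lower in the epithelium, 5789 and 6893 in the mesenchyme, and 4544 and 5339 in the mesothelium. Their medians were -0.027, -0.016 and -0.025. Pxn, the gene of the focal adhesion protein paxillin, had 14 UMIs in knockout-titled endothelium-like cells and 22 in control ones. These gave 39.6 and 84.4 CPM (log2 ratio -1.0, -1.96 to -0.056). Rgs2, a brake on G protein signalling, had 6 and 14 UMIs in neural-like cells, at 8.44 and 34.7 CPM (log2 ratio -1.56, -2.54 to -0.45). Over all lists, 2 of 26 genes tested in endothelium-like cells (7.69%) and 1 of 24 in neural-like cells (4.17%) passed the fold. These shares are near the 6.16% and 3.61% of all genes past the fold in the 2 classes.

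Of 30 other chemokine genes, 4 had at least 20 UMIs in the epithelium, 10 in the mesenchyme and 5 in the mesothelium, and none of these passed a log2 ratio of 1. Shares of all genes past that fold were 0.497%, 0.237% and 0.729%. In the mesenchyme 2 of these chemokine genes were higher and 8 lower (median -0.21), beside 5789 and 6893 of all genes (median -0.016). Among the lower ones, Pf4 had 2.58 and 4.02 CPM and Ccl2 0.463 and 2.51 CPM in the mesenchyme. Both peaked in immune-like cells in each library, while the lower genes Cxcl5 and Ccl11 peaked in mesenchyme-like classes. The part of free RNA in this count was not tested. Of 20 other chemokine receptor genes, 0 could be measured in the epithelium and mesothelium and 2 in the mesenchyme. Over all lists, 11 of 44 genes measured in immune-like cells passed the fold, beside 9.37% of all genes there, in 23 cells of the knockout-titled library and 82 of the control library.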

How the data were processed

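UMI counts per gene and cell barcode were deposited for 1 knockout-titled and 1 control library, grouped by sample title. The submitters' processing notes name Cell Ranger (no version), GRCm38 and Seurat 2 and 3. The authors' deposited cluster table holds, per the file headers, a mean log fold per gene, here taken to be a natural log, and the fraction of cells in and outside each cluster, printed as percent. Its p-values, per the file headers, treat cells as replicates and were not used, and its values for 1 further cluster are not reported here.

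Cells needed at least 500 genes, 1000 UMIs and at most 10% mitochondrial UMIs. Doublets were scored against simulated ones and 0.8% per 1000 barcodes removed (73 knockout-titled, 121 control). Barcodes with over 50% haemoglobin UMIs were kept apart as erythroid (37 and 32) and those with 1 to 50% left out (0 and 2), a choice made after seeing the data. Log-normalized counts of 2000 variable genes, without haemoglobin genes and the 3 members, gave 30 principal components and a 15-neighbour graph, clustered with leidenalg 0.10.2 at resolution 1.0 (seed 0). Epithelium and mesenchyme were clustered again. A name needed at least 3 detected markers and no more markers of another class than of its own among the 10 leading genes, and Neurog3-high cells were taken before other epithelial classes. Neurog3 and Lum cut classes and are not results.

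UMIs were summed per class and library, with a pseudocount of 5 CPM for ratios. List and background genes needed 20 UMIs over both libraries in the class. A floor is 3 counts. Only the intervals of ratios were tested on simulated data, drawn as Poisson counts, which is what these intervals assume. Doublet scoring, clustering, naming of classes and thinning were not part of that test. The members, lists and markers were chosen with earlier results of these data known. Named genes are the members, the 5 most like each (at least 50 UMIs, and 50 CPM in a class), list genes past a log2 ratio of 1, and class markers, list genes named for their role being chosen after seeing the data. Scaling by TMM used edgeR 4.0.16 in R 4.3.3. Python 3.11.15 was used, with scipy 1.17.1.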

Additional observations from a re-analysis of the deposited data

How the results depend on the processing

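No paired analysis was possible because each group is 1 library. Of 188 values of the main results under the alternatives, 158 stayed within the reported value's interval (for counts of genes, within 1.5 times) and 30 moved. No ratio of a member with at least 20 UMIs was past the fold, so none could lose a call. The sign of the Cxcl12 ratio held in 10 of 17 alternatives in Lum-high cells, 12 of 16 in mesothelium, 15 of 18 in all mesenchyme and 21 of 21 in the trunk. The trunk log2 ratio of Cxcl12 was -0.17 when cells were assigned by marker UMIs. That assignment put 707 and 1327 cells in the trunk-like class, against 210 and 338 by clusters, with Ackr3 at 5.68 and 6.79 CPM. It is therefore not a measure of the same cells. Without trunk clusters 0, 3 and 4 the ratio was -0.74, -0.086 and -0.72. The Lum-high ratio of Cxcl12 was 0.23 with the stricter cell filter (1500 genes, 5% mitochondrial), 0.19 without doublet removal, 0.12 at resolution 0.5, 1.23 at 2.0, 0.42 by marker UMIs and 0.42 with the class taken as cells of 5 or more Lum UMIs. Assignment by marker UMIs gave 1.03 for Cxcl12 in mesothelium and -0.14 in all mesenchyme. The cause was not tested. Equal cluster shares, chosen after seeing the data, gave 0.26 for Ackr3 in all mesenchyme. The Cxcr4 ratio in Neurog3-high cells, which rests on 1 UMI, was -0.21 with the stricter filter, -0.23 at a Neurog3 minimum of 10, -0.81 at a pseudocount of 1, -0.29 without haemoglobin, mitochondrial and ribosomal protein genes in the total, -0.20 with TMM scaling, -0.23 as the mean over cells and -0.56 after thinning. In all epithelium it was -0.57 at a pseudocount of 1, -0.21 without those genes and -0.24 after thinning. Without thinning, the shares of trunk cells with Cxcl12 were 31.9% and 52.1%, of Lum-high cells with Cxcl12 98.5% and 96.5%, and of mesothelium cells with Ackr3 13.0% and 11.3%; thinning to 2000 UMIs gave 78.2% for Lum-high control cells. Of the other values, 369 of 437 did so. With 24 UMIs, depth limits every statement on Cxcr4.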

Other observations

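Genes of other chemokines and their receptors were counted in the same cells. In immune-like cells, 11 of 44 list genes with at least 20 UMIs had a log2 ratio of -1 or less and 0 had one of 1 or more, where 9.37% of all genes passed in either direction. The list genes are other chemokines, with the exceptions of Cd74, which encodes a receptor of the cytokine MIF, and the receptor genes Ccr2 and Ccrl2. Ccl4, a macrophage chemokine, had 23.4 CPM in 4 of 23 cells of the knockout-titled library and 518 CPM in 26 of 82 cells of the control library (log2 ratio -4.20, -5.28 to -3.21). Cxcl2, a neutrophil attractant, had 229.8 CPM in 4 of 23 cells and 955 CPM in 44 of 82 cells (log2 ratio -2.03, -2.43 to -1.65). A single cell held 45 of the 59 Cxcl2 UMIs of the knockout-titled library, and at most 66 of 728 in the control library. The interval does not take this spread over cells into account. The monocyte attractant Ccl2 had 35.05 CPM in 3 of 23 cells and 215 CPM in 29 of 82 cells (log2 ratio -2.46, -3.42 to -1.59). Cxcl10 had 0 UMIs in 23 cells, with a floor of 11.7 CPM, and 20 UMIs at 26.2 CPM in 82 cells. The macrophage-like cluster led by Pf4 and C1qb held 12 of 23 and 49 of 82 immune-like cells, that led by the neutrophil genes S100a8 and S100a9 held 3 and 20, and that led by the mast cell protease genes Cpa3 and Cma1 held 8 and 13. The part of this mix in the chemokine values was not tested. TMM scaling shifted the immune-like log2 ratios by -0.12.

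Cxcl10 was also past the fold in trunk-like cells, as 1 of 37 list genes tested, where 0.391% of all genes were. It had 7 UMIs in 4 of 210 cells of the knockout-titled library and 76 UMIs in 32 of 338 cells of the control library, at 2.36 and 16.8 CPM (log2 ratio -1.57, -1.93 to -1.08).

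Ccl21a, a chemokine of lymphatic vessels, had 0 UMIs in 32 endothelium-like cells of the knockout-titled library, with a floor of 8.48 CPM, and 267 UMIs at 1024 CPM in the control library, all from 3 of 26 cells. Near-identical copies of this gene exist in mice, so its counts are uncertain. Cxcl13, a lymphocyte attractant, shared the place of the highest Cxcl12 level: it peaked in Lum-high mesenchyme-like cells, at 259 CPM in the knockout-titled library and 190.5 CPM in the control library.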
